A study of Mus musculus with 2 samples.

Results

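The nuclear receptors examined here are 34 genes of the ligand-regulated and orphan receptor family, chosen as a list of receptor symbols and looked up by gene name among the probes of a mouse expression array that carried 30259 genes with a usable probe. Liver RNA from C57BL/6N mice lacking Pnpla8, a calcium-independent phospholipase A2 of mitochondria and peroxisomes (genotype Pnpla8-/-, called the knockout pool), was set against liver RNA from Pnpla8+/+ mice of the same strain (the wild-type pool). Each pool combined equal amounts of RNA from 5 animals and was hybridised to 1 Cy3 array, so the series holds 2 arrays, 1 per genotype. The sample labels give an age of 6 weeks and the series design text gives 8 weeks, and the labels state neither a treatment nor which cells carried the deletion. With 1 array per genotype there was no replicate check and no test between genotypes: every ratio below compares 2 pools, and the spread between animals is not known.

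Nuclear receptors are transcription factors that bind DNA response elements and change the transcription of nearby genes. For the ligand-regulated members, a small lipophilic ligand occupies the ligand-binding domain and alters this activity. Many nuclear receptors work as heterodimers with a retinoid X receptor on repeats of a short half-site. In liver they are known for setting bile acid and drug metabolism, lipid synthesis and oxidation, glucose output and circadian timing.

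The 55 probes of the 34 receptors included 2 that were marked as outliers by the scanner software, 1 each for Nr1h3 and Esr1, which left 53 probes, and 17 receptors were read by a single probe. Values are given as scaled signal, the processed signal divided by the 75th percentile of its own array, and as the log2 ratio of the knockout over the wild-type pool on that scale. Levels are compared only between the pools for the same probe. A receptor was counted as measured when a probe stood well above background in knockout and wild type alike, and its log2 ratio is the median over such probes. A total of 31 receptors were measured on both arrays, Hnf4g on the wild-type array only, and Vdr and Nr4a3 on neither. Of the 53 probes, 48 were well above background on both arrays, 3 on neither, 2 on the wild-type array alone and 0 on the knockout array alone.

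Of the 31 measured receptors, 0 were higher in the knockout pool by 2-fold or more and 0 were lower by as much, against 253 of 19394 measured genes (1.3%) higher and 359 (1.85%) lower. The balance of those all-gene counts followed the scaling: it was 305 higher and 295 lower with median scaling and 114 higher and 746 lower without scaling, where the all-gene median was -0.21. At 1.5-fold, Esrrg and Nr1i3 were higher and no receptor was lower, against 4.42% of all genes higher and 6.0% lower. The median log2 ratio of the receptors was 0.08, against 0.04 over all measured genes, and 18 receptors lay above the all-gene median and 13 below it. The all-gene quartiles were -0.14 and 0.21, and the log2 ratios of repeat spots of 1 probe had a typical (median) SD of 0.05 and those of different probes of 1 gene 0.10, both technical. The scanner software's error model gave the log2 ratios of single receptor probes an error of 0.20 to 0.36. Beyond that error from the all-gene median lay 8 receptors above (25.8% of 31) and 4 below (12.9%), against 18.7% and 21.1% of all genes. The 8 were Esrrg, Nr1i3, Nr1i2, Rxra, Esr1, Esrra, Pparg and Nr5a2, and the 4 were Nr4a2, Rarg, Nr2f2 and Nr2f1. For Rxra, Esr1 and Nr5a2 the place among the 8 depended on the dimmer probes. Their brightest probes had log2 ratios of 0.22, 0.22 and 0.00, within the probe error of 0.20 of the all-gene median.

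The subfamilies below hold only the 34 listed receptors. By sequence subfamily, NR3 had the highest median log2 ratio among subfamilies with more than 1 measured gene, 0.38. Its 4 listed genes were all measured and all 4 lay above the all-gene median. The NR1 subfamily, which holds the sensors of drugs, lipids, retinoic acid and thyroid hormone, had a median of 0.07, with 14 of 15 measured and 8 above the all-gene median; its median lay below that of all genes with quantile normalization, with normexp and with no filter on dim probes. The NR2 subfamily had a median of 0.00, with 9 of 10 measured and 4 above. The NR4 subfamily had a median of -0.13, with 2 of 3 measured. Nr5a2 and Nr6a1, the only listed NR5 and NR6 genes, lay at 0.25 and 0.02. Nr5a1, an NR5 receptor outside the list, had a log2 ratio of 1.15. In 9 of the 16 receptors read by 2 or more measured probes, those probes lay to 1 side of the all-gene median, and the median range between probes was 0.18.

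Pnpla8 itself had a processed signal of 4.45 on the knockout array, not well above background, and 144.5 on the wild-type array, which puts the knockout level at least 6.81-fold lower. Whether its probe lies inside the deleted part was not known from the sources used here. In the knockout and wild-type arrays 65.6% and 70.1% of the 43020 non-control spots were well above background, the 75th percentiles of processed signal were 1018 and 1207, and no spot was saturated.

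The bases upstream of the 4 receptors with the highest log2 ratios, Esrrg, Nr1i3, Nr1i2 and Rxra, are shown. The first 3 were taken by rank and Rxra was added by name. Its log2 ratio of 0.44 was close to the 0.43 of Esr1, which is not shown. RefSeq promoters (GRCm38.p6) matched 32 of the 34 receptors, with 52 promoters, and each window holds the 250 bases before the annotated start site, 5′ to 3′ on the strand of the gene. Both strands were searched for the half-site AGGTCA, the E-box CACGTG and the TATA box TATAAA, and matches are in capitals and do not overlap. For Esrrg and Rxra the 1 promoter that held a match is shown, and the other 3 of Esrrg and the other 1 of Rxra held none.
Esrrg, chr1:187608756-187609005, plus strand, 1 of 4 promoters, with a TATA box on the minus strand 19 bases before the start site: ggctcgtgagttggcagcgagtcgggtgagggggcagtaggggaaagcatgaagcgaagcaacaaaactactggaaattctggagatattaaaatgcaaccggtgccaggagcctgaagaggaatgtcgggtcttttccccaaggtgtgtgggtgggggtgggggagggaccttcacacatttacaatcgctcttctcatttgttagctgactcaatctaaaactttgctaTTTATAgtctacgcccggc
Nr1i3, chr1:171213720-171213969, plus strand, with an E-box 244 bases before the start site: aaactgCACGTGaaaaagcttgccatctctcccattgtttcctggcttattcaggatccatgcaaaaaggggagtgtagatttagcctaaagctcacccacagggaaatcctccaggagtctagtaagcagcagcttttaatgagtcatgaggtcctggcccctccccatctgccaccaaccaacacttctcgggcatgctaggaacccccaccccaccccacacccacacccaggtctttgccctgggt
Nr1i2, chr16:38294825-38295074, minus strand, with none of these letters in this window: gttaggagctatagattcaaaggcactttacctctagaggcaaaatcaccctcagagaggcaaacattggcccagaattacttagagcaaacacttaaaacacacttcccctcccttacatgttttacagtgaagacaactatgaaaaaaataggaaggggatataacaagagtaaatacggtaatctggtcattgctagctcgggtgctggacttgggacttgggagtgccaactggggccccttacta
Rxra, chr2:27709042-27709291, plus strand, 1 of 2 promoters, with half-sites 87 bases (minus strand) and 48 bases (plus strand) before the start site: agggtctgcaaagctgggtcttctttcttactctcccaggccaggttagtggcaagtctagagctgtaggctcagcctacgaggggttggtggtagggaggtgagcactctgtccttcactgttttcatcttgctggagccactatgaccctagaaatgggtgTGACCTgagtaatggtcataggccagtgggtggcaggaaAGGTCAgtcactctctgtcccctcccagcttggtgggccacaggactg

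The half-site was in 9 of the 52 receptor promoters (17.3%) and in 4607 of 32851 promoters of the same length (14.0%). The E-box was in 3 (5.77%) against 6.02% of all promoters, and the TATA box in 5 (9.62%) against 12.4%. The GC box GGGCGG, not marked above, was in 25 (48.1%) against 32.7%. These matches describe letters and not sites, and several promoters belong to the same gene.

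**Figure D1:**
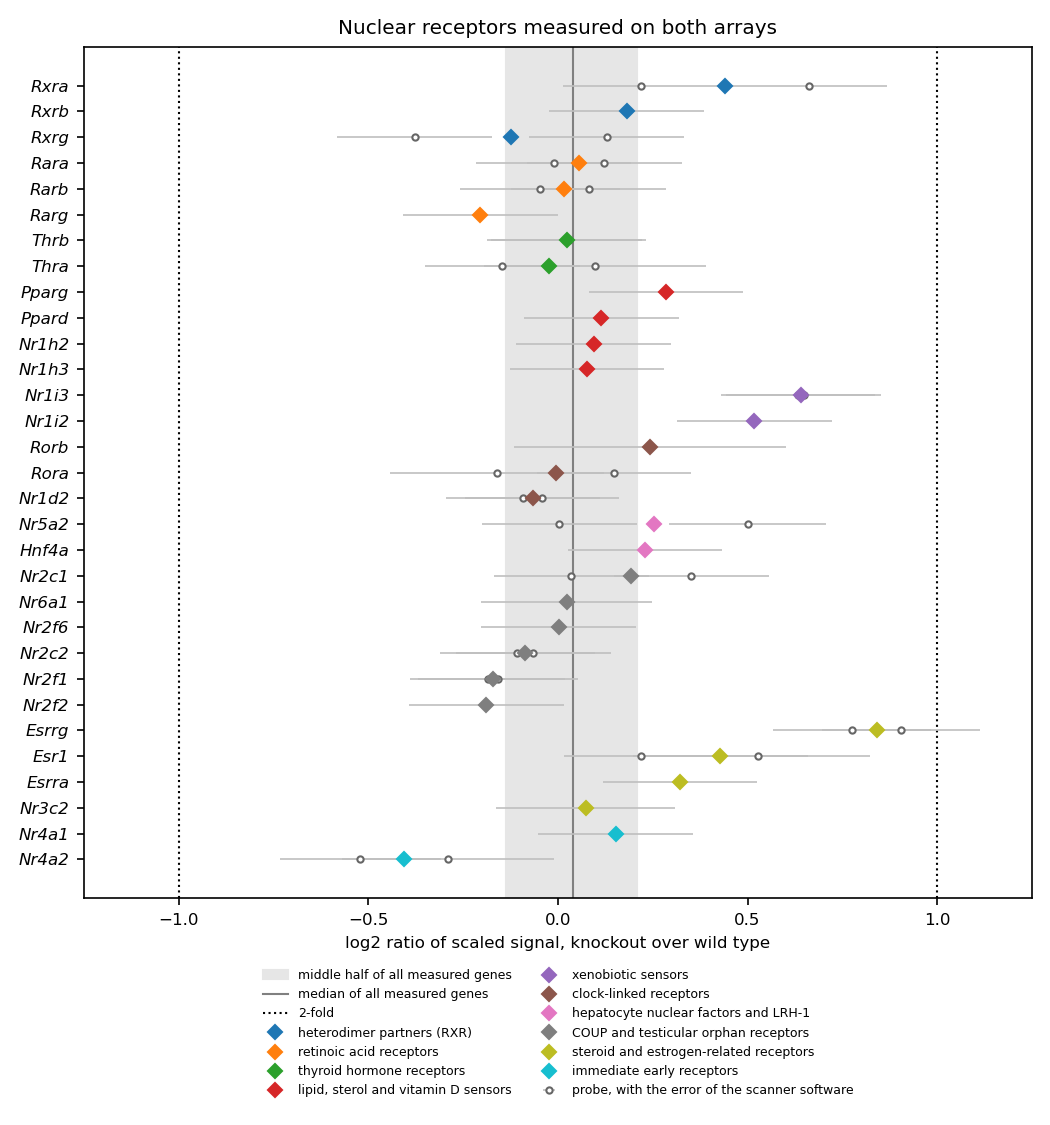
Log2 ratio of scaled signal, knockout over wild-type pool, on the x axis for the 31 measured receptors, ordered and coloured by role down the page; diamonds are receptors, open circles are single probes with the scanner software's error as bars, the band spans the all-gene quartiles, the solid line is the all-gene median of 0.04 and dotted lines mark 2-fold. Esrrg lies highest at 0.84 and Nr4a2 lowest at -0.41, and no receptor reaches a 2-fold difference.

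The xenobiotic sensors, Nr1i3 (CAR) and Nr1i2 (PXR), which respond to drugs and bile acids and switch on detoxifying enzymes, were both higher than the all-gene median, with a median log2 ratio of 0.58 for the pair. Nr1i3 had scaled signals of 7.96 in the knockout and 5.08 in the wild-type pool on the first probe (chr1:173147776-173147835, mm9) and of 20.9 in the knockout and 13.5 in the wild-type pool on the second (chr1:173148765-173148824, mm9). Both probes were higher in the knockout pool, at log2 ratios of 0.65 and 0.63, for 1.56-fold over both. Nr1i2, with 1 probe, had 4.89 in the knockout and 3.42 in the wild-type pool, 1.43-fold and a log2 ratio of 0.52. At least as high as Nr1i3 were 3.68% of all measured genes, and at least as high as Nr1i2 5.57%.

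The steroid and estrogen-related receptors were all 4 above the all-gene median, with a group median of 0.38. Esrrg, an orphan receptor that drives mitochondrial and gluconeogenic genes, was the highest of the 31: its probes read 0.217 in the knockout and 0.116 in the wild-type pool (chr1:190038192-190038251, mm9), and 0.234 in the knockout and 0.137 in the wild-type pool (chr1:190038384-190038443, mm9). Both probes were higher in the knockout pool, at log2 ratios of 0.90 and 0.78, for 1.79-fold over both. At least as high as Esrrg were 2.07% of all measured genes. Esrra, the family member that acts on oxidative phosphorylation genes with the coactivator PGC-1α, read 10.9 in the knockout and 8.73 in the wild-type pool, a log2 ratio of 0.32. Esr1, the estrogen receptor α, had 3 probes, all higher in the knockout pool, at log2 ratios of 0.22 to 0.53. The Esr1 probe with 10 spots per array read 0.9997 in the knockout and 0.858 in the wild-type pool, with log2 ratios of 0.12 to 0.31 over its spots. Nr3c2, the mineralocorticoid receptor, read 0.0592 in the knockout and 0.0562 in the wild-type pool, a log2 ratio of 0.07, within the error of its probe.

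The retinoid X receptors, the shared heterodimer partners, had a median of 0.18 and were not all on 1 side of the all-gene median. Rxra read 0.694 in the knockout and 0.438 in the wild-type pool on the probe at transcript position 1743, and 0.701 in the knockout and 0.603 in the wild-type pool on the probe at position 5208. Both were higher in the knockout pool, at log2 ratios of 0.66 and 0.22, for 1.36-fold over both, but the first ratio was larger than the second by more than the error of either. Rxrb read 9.15 in the knockout and 8.06 in the wild-type pool, a log2 ratio of 0.18. The 2 Rxrg probes disagreed in direction: 1 read 1.15 in the knockout and 1.497 in the wild-type pool (-0.38) and the other 2.94 in the knockout and 2.69 in the wild-type pool (0.13), the widest probe range in the family at 0.51, so Rxrg has no settled direction.

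The retinoic acid receptors bind retinoic acid from vitamin A and had a median of 0.02. Rara and Rarb differed by less than their error: Rara had log2 ratios of 0.12 and -0.01 on its probes, and Rarb of 0.08 and -0.05. Rarg read 1.45 in the knockout and 1.67 in the wild-type pool, a log2 ratio of -0.20. The thyroid hormone receptors, which act on lipid and energy metabolism genes, had log2 ratios near 0: Thra had 0.10 and -0.15 on its probes, and Thrb 0.03 and 0.02.

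Among the lipid, sterol and vitamin D sensors, the median over the 4 measured was 0.10. Pparg, the adipogenic PPAR, read 2.52 in the knockout and 2.07 in the wild-type pool, a log2 ratio of 0.28 with values of 0.24 to 0.33 over its 10 spots. Ppard, which acts on fatty acid oxidation, read 0.787 in the knockout and 0.727 in the wild-type pool. The oxysterol receptors differed little between the pools: Nr1h3 (LXRα) read 20.3 in the knockout and 19.2 in the wild-type pool, and Nr1h2 (LXRβ) 9.03 in the knockout and 8.46 in the wild-type pool. Vdr, the vitamin D receptor, read 0.0041 in the knockout and 0.0114 in the wild-type pool, not well above background in either.

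**Figure D2:**
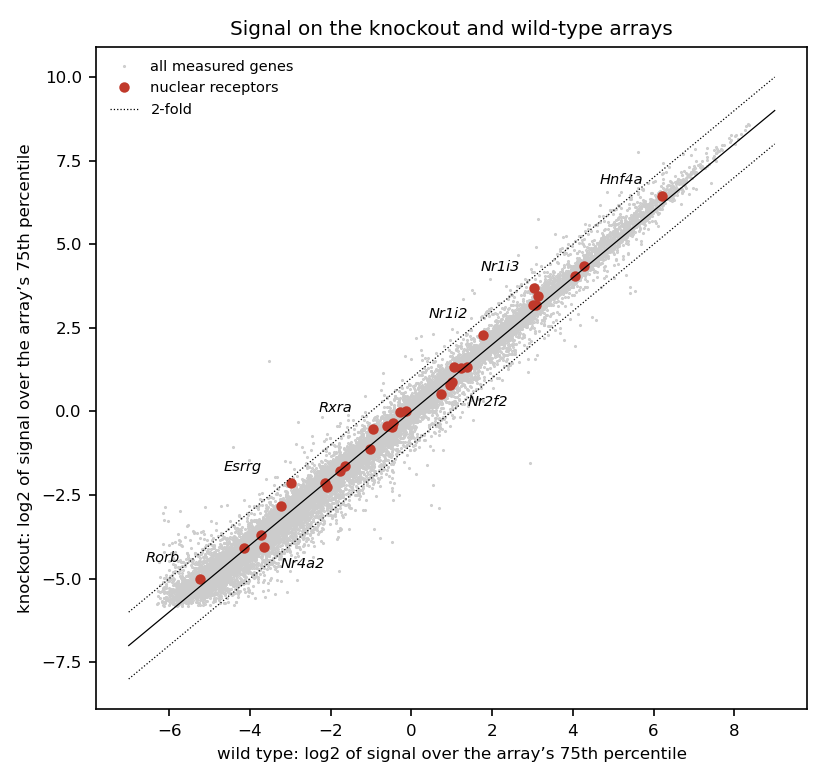
Log2 of scaled signal in the knockout pool on the y axis against the wild-type pool on the x axis, with the measured receptors in red over all measured genes in grey; the solid line marks equal levels and the dotted lines 2-fold. All 31 receptors lie between the dotted lines, with Esrrg, at 0.84, nearest to the upper one.

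Among the hepatocyte nuclear factors and LRH-1, Hnf4a, a main regulator of hepatocyte identity, read 86.4 in the knockout and 73.7 in the wild-type pool, a log2 ratio of 0.23. Over the processing settings Hnf4a lay -0.005 to 0.19 from the all-gene median, within its probe's error of 0.20. Nr5a2 (LRH-1), which controls bile acid synthesis genes, read 3.97 in the knockout and 3.96 in the wild-type pool on 1 probe and 0.243 in the knockout and 0.171 in the wild-type pool on the other, for log2 ratios of 0.00 and 0.50, so its gene value of 0.25 rests on the second probe. Hnf4g, a close relative of Hnf4a, read 0.0185 in the knockout, not well above background, and 0.0258 in the wild-type pool. The knockout reading was 1.40-fold lower, a log2 ratio of -0.48 with a probe error of 0.44. This value uses the dim knockout reading itself, so it is a rough estimate and not a lower limit.

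The COUP and testicular orphan receptors, which mostly repress or compete at half-site repeats, had a median of -0.04 over 6 measured. Nr2f2 read 1.72 in the knockout and 1.96 in the wild-type pool, a log2 ratio of -0.19, and Nr2f1 had log2 ratios of -0.19 and -0.16 on its probes, so both COUP factors were lower in the knockout pool than the all-gene median, at 1.14-fold and 1.13-fold lower. Nr2f6 read 16.5 in both pools, and the testicular receptors Nr2c1 and Nr2c2 and the germ cell nuclear factor Nr6a1 had log2 ratios of 0.19, -0.09 and 0.02.

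The clock-linked receptors had a median of -0.01. Nr1d2 (REV-ERBβ) had log2 ratios of -0.09 and -0.04; its second probe is placed by the file on chromosome 19 while the gene is on chromosome 14. Rora, an activator at the same clock gene elements, had -0.16 and 0.15. Rorb, its relative, read 0.0312 in the knockout and 0.0264 in the wild-type pool on its 1 measured probe, a log2 ratio of 0.24 within the probe's error of 0.36.

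The immediate early receptors, induced quickly by stress and hormone signals, had a median of -0.13 over the 2 measured. Nr4a2 was the lowest receptor, at 0.101 in the knockout and 0.146 in the wild-type pool on 1 probe and 0.0357 in the knockout and 0.0436 in the wild-type pool on the other. Both its probes were lower in the knockout pool, at log2 ratios of -0.52 and -0.29, for 1.32-fold lower, and 10.003% of all measured genes were as low. With normexp background correction its log2 ratio was -0.13 and Nr2f2, at -0.22, was the lowest. Nr4a1 read 1.015 in the knockout and 0.913 in the wild-type pool, a log2 ratio of 0.15, and Nr4a3 was not well above background on either array.

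**Figure D3:**
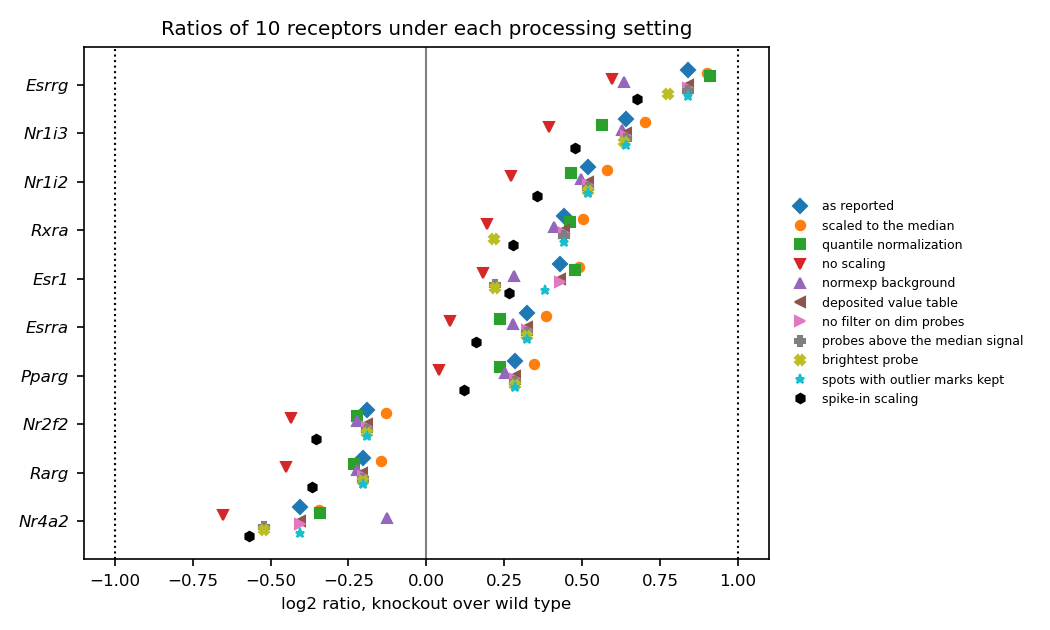
Log2 ratio of knockout over wild-type pool on the x axis for 10 receptors, listed down the page, under 11 processing settings, each with its own marker; dotted lines mark 2-fold. Esrrg lies above 0 in every setting, at 0.60 to 0.91, and Nr4a2 below 0, at -0.65 to -0.13.

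Because the scaling of the arrays shifts all ratios together, each receptor was also read against the all-gene median under 11 settings, or 10 for Rorb, Nr3c2 and Nr6a1, which have no value with the stricter filter on dim probes. Above that median in every setting that gave a value were 11 receptors, namely Esrrg, Nr1i3, Nr1i2, Rxra, Esr1, Esrra, Pparg, Rxrb, Nr4a1, Ppard and Rorb. Below it in every such setting were 9, namely Nr4a2, Rarg, Nr2f2, Nr2f1, Nr1d2, Nr2c2, Thra, Thrb and Nr2f6, and the other 11 lay on both sides. Median, spike-in and no scaling and the deposited value table shift all reported ratios by a constant. They leave the distances to the all-gene median unchanged by construction, so their agreement is no added check. Some distances were small: Thrb lay at -0.07 to -0.01 and Ppard at 0.02 to 0.09, within their probe errors of 0.20. Relative to 0, 8 were higher and 6 lower in every setting that gave a value.

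The lists of partners and targets that follow were chosen with earlier results of these data known, overlap with each other and with the receptors, and are described by counts and medians beside the all-gene values of 1.3% and 1.85% at 2-fold and a median log2 ratio of 0.04. Among 15 receptors outside the 34, 11 were measured and 1 was at least 2-fold higher, the steroidogenic factor Nr5a1, at 1.90 in the knockout and 0.855 in the wild-type pool; it was under 2-fold without scaling and with spike-in scaling. Nr1d1 (REV-ERBα), a clock repressor, had a log2 ratio of -0.51. Of 17 coactivators, all measured, 1 was at least 2-fold higher: Ppargc1a (PGC-1α), a coactivator of mitochondrial and gluconeogenic genes, at 0.913 in the knockout and 0.431 in the wild-type pool, 2.12-fold, which was under 2-fold without scaling, with spike-in scaling and with normexp. Its relative Ppargc1b had a log2 ratio of 0.50 and Ncoa4 of 0.49. Of 11 corepressors, 10 were measured, 0 passed 2-fold, and the median was -0.06, with Tbl1xr1 at -0.27, Sin3a at 0.27 and Gps2 at 0.17.

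Targets of the xenobiotic sensors were measured for 22 of 26 genes, with 3 at least 2-fold higher, none lower, a median of 0.29, and 18 above the all-gene median. The 3 were the sulfotransferase Sult1d1 (2.88 in the knockout and 1.19 in the wild-type pool), the cytochrome P450 Cyp2b13 (47.4 in the knockout and 21.1 in the wild-type pool) and the transporter Slco1a4 (7.29 in the knockout and 3.34 in the wild-type pool); 1 of them, Sult1d1, passed 2-fold without scaling and 2 passed with spike-in scaling. Targets of estrogen-related receptors were measured for all 16 genes, with 1 at least 2-fold higher, a median of 0.38 and 15 above the all-gene median; Igfbp1, which binds insulin-like growth factors, read 94.4 in the knockout and 36.6 in the wild-type pool, and Hamp and Lpin1 had log2 ratios of 0.91 and 0.87. LRH-1 targets were measured for 12 of 13 genes with none past 2-fold, but a median of 0.43: Gnmt, a methionine cycle enzyme, and the bile acid enzymes Cyp7a1 and Cyp8b1 had log2 ratios of 0.93, 0.89 and 0.86.

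Targets of LXR were measured for 15 of 17 genes, with a median of 0.08 and 1 at least 2-fold lower, the fatty acid synthase Fasn, at 2.99 in the knockout and 7.35 in the wild-type pool. Pltp had a log2 ratio of -0.95 and Cyp7a1 of 0.89, so the LXR list did not lie to one side, and its median was -0.02 with quantile normalization. Thyroid hormone receptor targets (13 of 13 measured, median -0.09) held Upp2 at 2.50-fold higher, and Spon2 at 2.38-fold and Fasn at 2.46-fold lower. Retinoic acid receptor targets (11 of 13, median -0.03) had 1 at least 2-fold higher, the retinoic acid hydroxylase Cyp26a1 at 1.56 in the knockout and 0.595 in the wild-type pool, with Tgm2 at -0.63; this list's median was 0.06 with the brightest probe per gene. The PPAR list (24 of 27, median 0.26) held the lipid droplet gene Plin4 at 4.29-fold higher and the hormone Fgf21 at 0.134 in the knockout and 1.60 in the wild-type pool, 11.955-fold lower, and Cyp4a31 at a log2 ratio of 0.92.

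Targets of HNF4A (21 of 23, median 0.18) had 1 at least 2-fold higher, the amino acid enzyme Tat, at 2.50-fold, with Cyp2d22 at a log2 ratio of 0.43 and Apoa4 at -0.56. With quantile normalization the HNF4A list median was 0.01, below the all-gene median of 0.04 there, and among all genes the tenth with the strongest signal had a median of 0.12. REV-ERB and ROR targets (16 of 20, median 0.21) held the clock gene Ciart at 2.08-fold higher, with Lpin1 at 0.87 and Arntl at 0.85; Ciart was under 2-fold without scaling, with spike-in scaling and with normexp. The list made for the NR4A receptors (16 of 19, median 0.04) includes Nr4a1 itself and immediate early genes such as Fos and Jun. It is therefore not a list of established NR4A targets only. It held Btg2 at 2.23-fold higher and Fos at 0.0854 in the knockout and 0.295 in the wild-type pool, 3.46-fold lower, with Ier3 at -0.79. The NR4A list median was 0.15 with the stricter filter and 0.14 with outlier-marked spots kept.

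**Figure D4:**
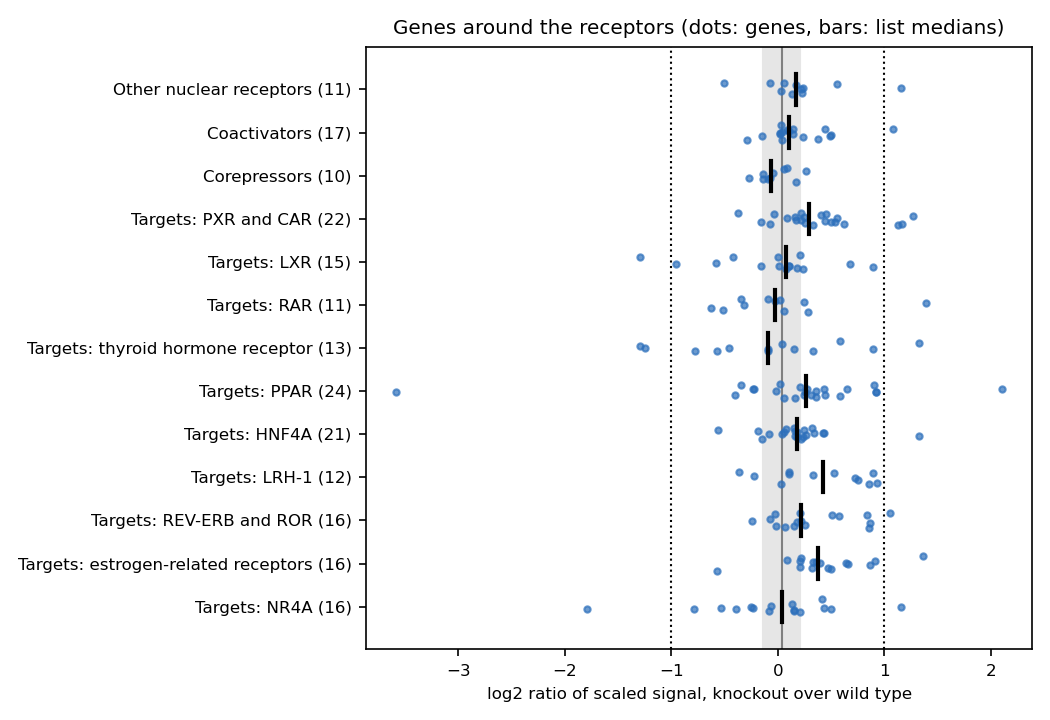
Log2 ratio of knockout over wild-type pool on the x axis for each measured gene of the lists of other receptors, coregulators and targets, with the number measured in brackets; dots are genes, bars are list medians, the band spans the all-gene quartiles of -0.14 to 0.21 and dotted lines mark 2-fold. The medians of LRH-1 targets, 0.43, and estrogen-related receptor targets, 0.38, lie furthest right, and Fgf21, at -3.58, is the dot furthest left.

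Markers of other liver cells also differed between the pools, and their part in the receptor ratios was not tested. In bulk liver RNA, fewer cells of a type and less RNA per cell cannot be told apart. Of 12 markers of Kupffer cells and macrophages, 5 were lower by 2-fold or more in the knockout pool, all 12 lay below the all-gene median, the median was -0.90 and their summed scaled signal was 46.3 in the knockout and 97.0 in the wild-type pool. Marco, Cd5l and Adgre1 had log2 ratios of -1.34, -1.22 and -1.16. Lymphocyte markers, 11 of 12 measured, had 4 at least 2-fold lower, a median of -0.85 and a sum of 3.36 in the knockout and 5.21 in the wild-type pool, with Cd3d, Ms4a1 and Ccl5 at -1.35, -1.34 and -1.19. Cd3e and Cd4 of the same list differed little, at log2 ratios of -0.06 and 0.04. The lymphocyte median was -0.39 with normexp and -0.42 with the stricter filter (6 measured), and 1 marker, Ccl5, was then 2-fold lower. The 12 markers of sinusoidal endothelial cells, in which Nr2f2 is known, had 0 past 2-fold, a median of -0.22 and sums of 55.6 in the knockout and 62.4 in the wild-type pool. The lowest were Lyve1, Cdh5 and Tek, at -0.66, -0.44 and -0.29. All 12 lay below the all-gene median, but Stab2, Kdr and Pecam1 differed little, at 0.03, 0.02 and 0.02. The 15 stellate cell markers, cells in which retinoic acid receptors are known, had 1 at least 2-fold lower (Acta2, -1.003), a median of -0.32 and sums of 72.7 in the knockout and 76.9 in the wild-type pool, with Col3a1 and Col1a1 at -0.61 and -0.57; Acta2 was under 2-fold with median or quantile scaling and with normexp. The 10 cholangiocyte markers had 1 at least 2-fold higher (Krt23, 1.17), a median of 0.16 and sums of 5.46 in the knockout and 3.07 in the wild-type pool. They did not lie to one side, with 6 above the all-gene median and 4 below it. Cldn4 and Cftr had log2 ratios of 0.48 and 0.34, while Krt19, Krt7, Epcam and Spp1 had -0.11, -0.11, -0.20 and -0.11. Without Krt23 the other 9 summed to 1.09999 in the knockout and 1.12769 in the wild-type pool, and with the stricter filter the list median was -0.11. Hepatocyte markers, 8 of 11 measured, had 1 at least 2-fold higher (Tat, 1.32), a median of 0.29 and sums of 1254 in the knockout and 980 in the wild-type pool, with Cps1 and Hpd at 0.99 and 0.85. With quantile normalization the hepatocyte median was 0.10, against an all-gene median of 0.04 there. Of 8 adipocyte markers, 2 were measured, Fabp4 and Retn, with a median of -0.27 and sums of 2.18 in the knockout and 2.77 in the wild-type pool.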

How the data were processed

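Liver RNA of 1 knockout and 1 wild-type pool was measured on 2 one-colour arrays of 1 slide. Per the labels' protocols, RNA was purified on RNeasy columns, checked on a Bioanalyzer, and 200 ng was labelled with Cy3. The authors deposited scanner intensity values, corrected for spatial and multiplicative trends, with surrogate values in use for dim spots, by Agilent Feature Extraction 11.5.1.1 per the file headers and the submitters' processing notes, together with a value table whose ratio to the deposited intensity is 1 constant per array (1019 for knockout, 1207 for wild type; column medians 0.0763 and 0.0800); it was used as an alternative. Probe positions are mm9, per the file headers.

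Spots with feature or background outlier marks (913 knockout, 896 wild type) and control spots were left out. Processed signals were divided by the 75th percentile of their array, taken to log2, averaged over spots of a probe and, for a gene, taken as the median over probes well above background on both arrays. A fold of at least 2 in either direction is the call, with 1.5 as an alternative. Of 39429 probes, 28330 were named by accession and 2378 by symbol through RefSeq, and 8721 keep the file's name. Fold bounds set the dim pool at the lowest signal well above background on its array, or its own if higher. Sums over marker lists add gene values. Scripts used Python 3.11.15, pandas 2.3.3, numpy 2.4.6, R 4.3.3 and limma 3.58.1 (normexp with an offset of 50), and the calls were tested on simulated data. The number of arrays limits the precision. Members, lists and named genes were chosen with earlier results of these data known. Genes named beside the receptors are, in each list, those at least 2-fold changed, or the 3 with the largest absolute log2 ratio where fewer than 3 are. Some genes that this rule names are not reported here.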

Additional observations from a re-analysis of the deposited data

How the results depend on the processing

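The alternatives were median, quantile, no and spike-in scaling, normexp background correction, the deposited value table, no filter or a stricter one on dim probes, the brightest probe per gene, spots with outlier marks kept, and a 1.5-fold threshold. Spike-in scaling was chosen after seeing the data. The receptor median log2 ratio was -0.17 without scaling and -0.087 with spike-ins, where the all-gene medians were -0.21 and -0.12. With no filter on dim probes 1 receptor was at least 2-fold lower (Vdr, not well above background). At 1.5-fold 2 receptors were higher; Nr1i3 lay under that threshold without scaling and with quantile or spike-in scaling, Esrrg passed it in all 11 settings, and Nr4a2, at a log2 ratio of -0.65, was 1.5-fold lower without scaling only. Over all genes, 253 were at least 2-fold higher and 359 lower; the counts were 305 and 295 with median scaling, 114 and 746 without scaling, 138 and 593 with spike-ins, 131 and 124 with normexp, 141 and 215 with the stricter filter, and 978 and 1215 without a filter. The cause of these shifts was not tested. No paired analysis was possible because each genotype has 1 array.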
